A study of Mus musculus with 20 samples.

Results

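The genes described here are 6 members of the WAP-domain (whey acidic protein domain) antiprotease family: Slpi, Wfdc2, Wfdc18, Wfdc3, Wfdc12 and Wfdc1. They were taken by gene symbol from the platform annotation, using probe sets with exactly 1 symbol, and where a gene had several such probe sets the one with the highest mean over the 20 arrays. All 6 were measured, out of 19937 genes in the value table. The family was selected on measured values of these arrays: it was chosen by the higher levels of Wfdc3 and Wfdc18 in mutant cells, so the comparisons of transgene-expressing mutant cells with control cells of the same gate are given here as a description. For them the number of genes past the threshold is printed beside the share of all genes with nothing read from it, and no p-value of a member is given. The name antiprotease is that of the family, and inhibitor activity was not measured.

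WAP-domain proteins are small secreted proteins built around 1 or more four-disulfide cores, a fold first described in a major whey protein of rodent milk. Several of them block serine proteases by inserting a loop into the active site, and some also kill bacteria, so the family is regarded as part of the chemical defence of wet epithelia. Slpi, the secretory leukocyte protease inhibitor, acts on neutrophil elastase and cathepsin G. Wfdc2, known as HE4 in human medicine, is a secreted epithelial protein used as a tumour marker. Wfdc18, first described as Expi or WDNM1, is an extracellular proteinase inhibitor known from the mammary gland. Wfdc12 is a small protein with antibacterial activity, Wfdc3 is a secreted protein with several WAP domains, and Wfdc1, known as ps20, was described as a growth-inhibitory protein of prostate stroma.

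Mammary epithelial cells were sorted from mice of mixed FVB/CD-1 background, 4 weeks after tamoxifen, with glands of 2 to 3 estrus-synchronized mice pooled per genotype in each of 3 sortings. Control mice carried K8-creERT2 alone, and mutant mice carried K8-creERT2 and a PIK3CA H1047R transgene, an activated form of the catalytic PI3K subunit. All groups thus share the Cre allele, and the labels give the tamoxifen treatment for controls as well. Cre is driven by the keratin 8 promoter, which is a luminal promoter, and the labels equate GFP with transgene expression. The sort kept cells without CD45, a leukocyte protein. Low CD24 without Sca1 defined the basal gate, and high CD24 defined the 2 luminal gates, one without and one with Sca1. The groups were GFP-negative control basal, control Sca1-negative luminal and control Sca1-positive luminal cells with 3 arrays each, mutant GFP-positive and mutant GFP-negative basal cells with 3 arrays each, mutant GFP-positive Sca1-negative luminal cells with 3 arrays, and mutant GFP-positive Sca1-positive luminal cells with 2 arrays, numbered 1 and 3. Each array held amplified RNA of 2000 cells. In such bulk samples, fewer cells of a type and less RNA per cell cannot be told apart.

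Of the 6 genes, Wfdc2, Wfdc3, Wfdc12 and Slpi lie on chromosome 2, Wfdc18 on chromosome 11 and Wfdc1 on chromosome 8. RefSeq promoter sequences (GRCm38.p6) were matched for 5 of the 6. The 250 bases before the start are shown for the 2 genes that were higher in mutant cells of all 3 gates, Wfdc3 and Wfdc18, and for Slpi, which was lower in GFP-positive basal cells. Capitals mark the matches to the searched motifs, and each sequence runs 5′ to 3′ on the gene's strand.
Wfdc3, chr2:164743268-164743517, minus strand: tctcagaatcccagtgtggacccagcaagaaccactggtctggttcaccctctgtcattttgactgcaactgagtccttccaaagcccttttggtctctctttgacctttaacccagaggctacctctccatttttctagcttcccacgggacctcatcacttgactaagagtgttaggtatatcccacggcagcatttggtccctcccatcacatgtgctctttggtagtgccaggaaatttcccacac
Wfdc18, chr11:83708754-83709003, plus strand: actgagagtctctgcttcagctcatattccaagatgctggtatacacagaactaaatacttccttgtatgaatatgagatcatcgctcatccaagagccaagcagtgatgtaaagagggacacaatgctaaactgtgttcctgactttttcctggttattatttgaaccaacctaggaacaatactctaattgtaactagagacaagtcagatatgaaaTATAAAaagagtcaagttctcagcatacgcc
Slpi, chr2:164356508-164356757, minus strand: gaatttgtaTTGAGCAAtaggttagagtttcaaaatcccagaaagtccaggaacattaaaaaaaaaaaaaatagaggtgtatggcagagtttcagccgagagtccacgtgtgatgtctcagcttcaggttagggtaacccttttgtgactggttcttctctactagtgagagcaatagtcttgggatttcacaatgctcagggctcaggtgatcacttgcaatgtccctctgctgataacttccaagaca
The motifs searched on both strands were a STAT motif (TTCNNNGAA), an AP-1 motif (TGANTCA), a C/EBP motif (TTGCNNAA), a FOXO motif (TGTTTAC) and a TATA box (TATAAA). Over 32841 promoters of the same length, 7.02% held the STAT motif, 6.75% the AP-1 motif, 9.57% the C/EBP motif, 3.17% the FOXO motif and 12.4% the TATA box. The Wfdc18 promoter held the TATA box from 31 to 26 bases before the start. The Slpi promoter held a C/EBP match from 241 to 234 bases before the start, and the Wfdc12 promoter one from 238 to 231 bases before it. These letters were not found in the Wfdc3 window or in the Wfdc2 windows. A match describes the letters of the window and is not a binding site.

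The values are log2 probe set summaries, and array medians lay between 3.66 and 3.80. Within groups, pairs of arrays had r of 0.931 to 0.971 over all deposited probe sets. The control Sca1-positive array of replicate 2 and the GFP-positive basal array of replicate 2 had a narrower spread over probe sets (SD 1.72 and 1.71) than the other arrays (1.78 to 1.88). Results that changed without these 2 arrays are given with both values. The basal gate and the luminal gates matched their markers. The mean of 7 basal markers, among them Krt5, Krt14 and Trp63, was 8.90 to 9.56 on basal arrays and 4.44 to 5.34 on luminal arrays. The mean of 6 luminal keratin and junction markers was 10.40 to 10.67 on luminal arrays and 7.52 to 9.19 on basal arrays. Neutrophil markers (8 genes, mean 3.25 to 3.60), macrophage markers (6 genes, 3.45 to 3.87) and Ptprc, which encodes CD45 (3.33 to 4.04), were near the array medians in every group. Levels were not compared between genes, since each probe set has its own scale. Where arrays of 2 groups are said not to overlap, this describes 2 or 3 arrays per group. Such separation also occurred at small differences, for example -0.15 for Wfdc1 between the mutant luminal gates.

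In control cells 3 of the 6 genes differed between gates: Slpi was higher in basal than in both kinds of luminal cells, Wfdc2 was lower in basal cells than in both, and Wfdc18 was higher in Sca1-negative luminal than in basal cells. Basal and Sca1-negative luminal control cells differed in 3 of the 6 genes at a Benjamini-Hochberg adjusted p under 0.05 in limma, of which 1 was higher and 2 were lower in basal cells, against 9.89% of all genes. Basal and Sca1-positive luminal control cells differed in 2 of the 6, with 1 higher and 1 lower in basal cells, against 12.3% of all genes. The median difference of the 6 genes was -0.57 in the first comparison and -0.18 in the second, with medians over all genes of 0.01 and -0.01.

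Slpi, the inhibitor of neutrophil elastase, read 11.47, 11.61 and 11.65 on the control basal arrays. It read 8.99, 9.64 and 9.84 on the control Sca1-negative luminal arrays and 9.73, 9.78 and 10.33 on the Sca1-positive ones. Every basal array was above every luminal array. The basal mean was 2.09 ± 0.20 (log2 difference ± SE) above the Sca1-negative mean, a 4.25-fold difference (limma adjusted p = 2.87e-06). It was 1.63 above the Sca1-positive mean (limma adjusted p = 2.84e-05).

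Wfdc2, the HE4 gene, read 10.82, 10.78 and 10.75 on the control Sca1-negative luminal arrays and 11.34, 11.16 and 11.34 on the Sca1-positive ones. The control basal arrays read 5.04, 8.37 and 7.47. The luminal arrays were tightly grouped, while the basal arrays spread over more than 3 log2 units with replicate 1 the lowest. The basal mean (6.96 ± 1.73, SD, n = 3) was 14.2-fold below the Sca1-negative mean (log2 difference -3.83, limma adjusted p = 0.000341) and differed from the Sca1-positive mean by -4.32 (limma adjusted p = 8.03e-05). Without control basal replicate 1 these differences were -2.87 and -3.36, without replicate 2 they were -4.53 and -5.03, and the calls held. The same 3 basal arrays had luminal marker means of 7.97, 8.34 and 7.52, and the part of luminal RNA in the Wfdc2 spread was not tested.

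Wfdc18, the mammary proteinase inhibitor, read 11.61, 11.47 and 11.58 on the control Sca1-negative luminal arrays. It read 9.42, 10.89 and 9.64 on the control Sca1-positive arrays and 9.12, 9.60 and 7.35 on the control basal arrays. The Sca1-negative arrays stood above all others of the controls, and the Sca1-positive and basal arrays overlapped. Basal cells were 7.28-fold below Sca1-negative cells (log2 difference -2.86, limma adjusted p = 0.000299), and the difference was -2.19, still called, without control basal replicate 3, the array that read 7.35. The difference between basal and Sca1-positive cells, -1.29, missed the threshold (limma adjusted p = 0.0657). It was -0.62 without control basal replicate 3, and passed the threshold without control basal replicate 2 (adjusted p = 0.0137) or without control Sca1-positive replicate 1 (adjusted p = 0.0480).

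The 2 luminal subsets of controls did not differ past the threshold in any of the 6 genes, and 0.762% of all genes were called. Of the 6, 2 (Wfdc18 and Slpi) had an unadjusted limma p under 0.05, against 1563 of all 19937 genes. Wfdc18 was lower in Sca1-positive cells by a log2 difference of -1.57 with no overlap of arrays (limma adjusted p = 0.149). Without control Sca1-positive replicate 2, one of the arrays of narrow spread, the difference was -2.02 (limma adjusted p = 0.0476). Wfdc3, the protein with several WAP domains, differed by -0.59 (adjusted p = 0.687), Wfdc2 by 0.50 (adjusted p = 0.959) and Slpi by 0.45 (adjusted p = 0.570) between these subsets in limma. Wfdc3 and Wfdc12 were low in all control groups, with means of 3.91 to 4.68 and of 3.41 to 3.78. Wfdc1 was between 3.91 and 4.45 on every control array, and its group means over all 7 groups lay between 3.98 and 4.31.

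**Figure D1:**
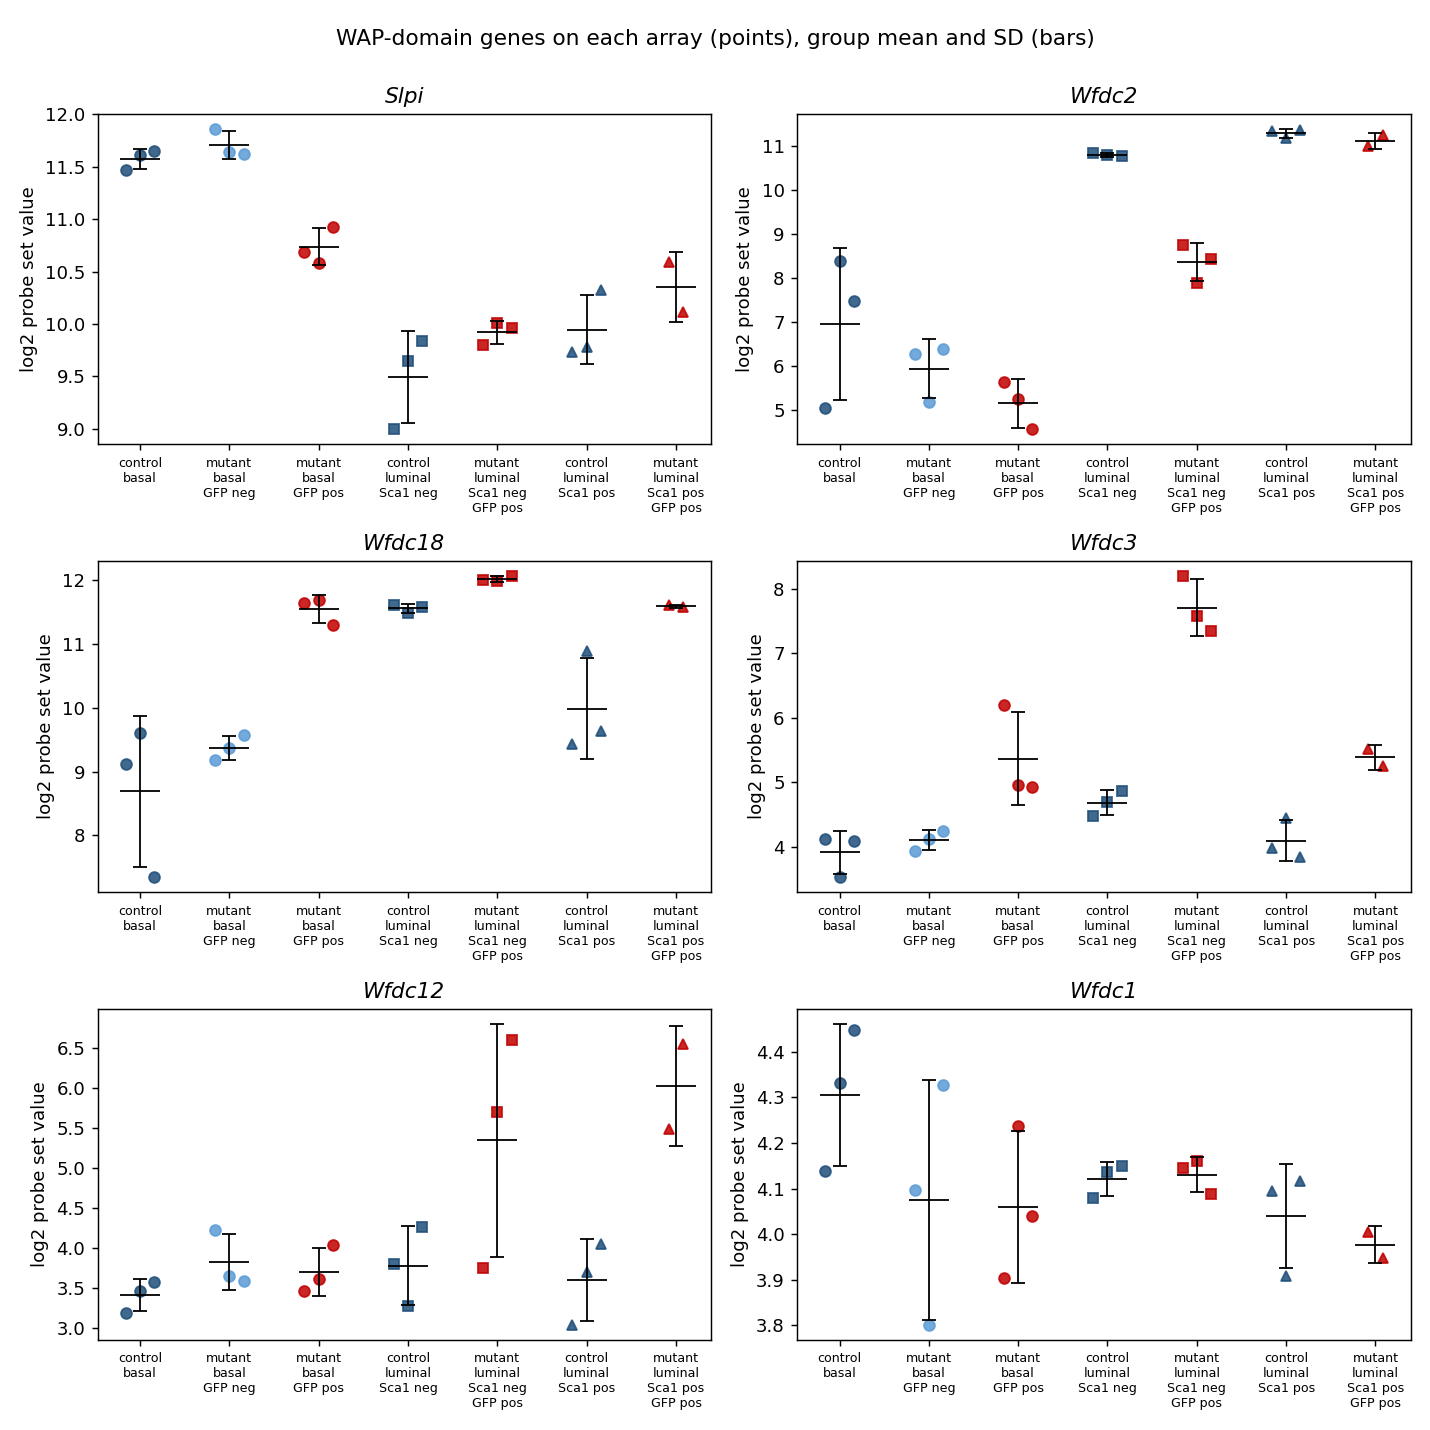
Log2 probe set values of the 6 genes (vertical axes, a scale of its own for each gene) in the 7 sorted groups (horizontal axes). Points are arrays, horizontal bars are group means and whiskers are 1 SD (n = 3, and n = 2 for mutant Sca1-positive luminal cells). Slpi is high in control and GFP-negative basal cells, Wfdc3 is highest in mutant Sca1-negative luminal cells at 7.34 to 8.19, and Wfdc1 stays between 3.80 and 4.45.

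Transgene-expressing cells were compared with control cells of the same gate, the comparisons that the choice of the family used. In the Sca1-negative luminal gate 2 of the 6 genes were called, Wfdc3 higher and Wfdc2 lower, beside 1.90% of all genes. In the Sca1-positive gate none of the 6 was called, beside 0.226% of all genes. In the basal gate 3 of the 6 were called, Wfdc3 and Wfdc18 higher and Slpi lower, beside 4.23% of all genes. Nothing is read from these counts. The Wfdc2 call was lost in 10 of 16 alternative settings, among them leaving out any of the 6 arrays compared. The Slpi call was lost in 6 of 16, among them leaving out control basal replicate 2 or 3 or GFP-positive basal replicate 1 or 2. A fit of only the compared groups lost the basal calls of Wfdc3 and Wfdc18. The median difference of the 6 genes was 0.44, 0.85 and 0.02 in the 3 gates, with medians over all genes of -0.03, -0.05 and -0.03. The mutant Sca1-positive group rests on 2 arrays.

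Wfdc3 was higher in mutant cells of each gate, with no overlap of arrays. In the Sca1-negative luminal gate the mutant arrays read 8.19, 7.58 and 7.34 and the control arrays 4.48, 4.70 and 4.87. That is a log2 difference of 3.02 (95% interval of the fit 2.38 to 3.66), or 8.12-fold. In the Sca1-positive gate the mutant arrays read 5.52 and 5.25 and the control arrays 3.99, 4.45 and 3.84, a difference of 1.29. In the basal gate the GFP-positive arrays read 6.20, 4.96 and 4.93 and the control arrays 4.12, 3.53 and 4.09, a difference of 1.45. The second Wfdc3 probe set was flat, with group means between 3.61 and 3.79. The mean of both probe sets differed by 1.50 in the Sca1-negative gate, 0.56 in the Sca1-positive gate and 0.71 in the basal gate.

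Wfdc18 was also higher in mutant cells of each gate, again without overlap of arrays. The basal gate showed 11.64, 11.69 and 11.29 on GFP-positive arrays against 9.12, 9.60 and 7.35 on control arrays, a log2 difference of 2.85 or 7.21-fold. Without control basal replicate 3 (7.35) it was 2.18. The Sca1-positive gate showed 11.60 and 11.57 against 9.42, 10.89 and 9.64, a difference of 1.60. In the Sca1-negative gate, where control cells were already high, the mutant arrays read 12.00, 11.97 and 12.06 against 11.61, 11.47 and 11.58, a difference of 0.46. The group means of transgene-expressing cells thus lay close together, from 11.54 in basal cells to 12.01 in Sca1-negative luminal cells, while those of control cells ran from 8.69 to 11.55.

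Markers of other cell types also moved in the luminal gates. In the Sca1-positive gate the mean of 4 luminal progenitor markers (Kit, Elf5, Aldh1a3 and Cd14) was 6.16 on both mutant arrays and 5.27 to 5.48 on the control arrays. The mean of the 7 basal markers was 5.06 and 5.30 against 4.44 to 4.68 there, and Krt5, a basal keratin, was called higher (log2 difference 2.14). The other 6 basal markers were not called, with differences from -0.34 (Oxtr) to 1.20 (Krt14). In the Sca1-negative gate the progenitor mean was 8.24 to 8.54 on mutant and 7.34 to 7.73 on control arrays, and Elf5, a transcription factor of luminal progenitors, was called higher (2.23). Of the 5 fibroblast markers Dcn was called lower in that gate (-2.83), and the fibroblast mean was 4.31 to 4.56 against 4.88 to 5.09. The other 4 fibroblast markers were not called, with differences from -0.14 (Col3a1) to 0.15 (Pdgfra). The part of these cell types in the member differences of the luminal gates was not tested.

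Wfdc12, the antibacterial member, had group means of 3.41 to 3.82 in the control and basal groups and higher ones in mutant luminal cells. In the Sca1-positive gate the mutant arrays read 5.49 and 6.55 and the control arrays 3.04, 3.70 and 4.06, a difference of 2.42 without overlap. In the Sca1-negative gate the mutant arrays read 3.75, 5.70 and 6.60 and the control arrays 3.80, 3.27 and 4.27. Replicate 1 of the mutant was thus within the control range, and the difference was 1.57 with all arrays and 2.37 without that replicate. In the basal gate the GFP-positive arrays read 3.46, 3.61 and 4.04 and the control arrays 3.19, 3.47 and 3.57, an overlap with a difference of 0.29.

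Wfdc2 was lower in mutant Sca1-negative luminal cells, in contrast to Wfdc3, Wfdc18 and Wfdc12. The mutant arrays read 8.74, 7.88 and 8.43 and the control arrays 10.82, 10.78 and 10.75, a log2 difference of -2.43 or 5.41-fold lower. In the Sca1-positive gate the mutant arrays read 10.98 and 11.23 and overlapped the controls, with a difference of -0.17 (95% interval of the fit -1.57 to 1.22). In the basal gate the GFP-positive arrays read 5.64, 5.24 and 4.56, and control replicate 1 (5.04) lay among them. The basal difference was -1.81 with all arrays and -2.77 without that control array. Hormone-sensing luminal markers moved beside Wfdc2: the mean of the 3 measured of 5 listed was 4.89 to 5.05 in mutant and 6.62 to 7.25 in control Sca1-negative cells, and all 3 (Esr1, Pgr and Foxa1) were called lower. Their part in the Wfdc2 difference was not tested.

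Slpi was lower than control in the transgene-expressing basal cells and not in the luminal ones. The GFP-positive basal arrays read 10.69, 10.59 and 10.93, all below the control basal arrays, a difference of -0.84. The mutant Sca1-negative arrays read 9.80, 10.01 and 9.96 and the mutant Sca1-positive arrays 10.59 and 10.12, differences from control of 0.43 and 0.41, both with overlap. Wfdc1 differed by at most 0.25 in size, in the basal gate (-0.25), where the arrays overlapped.

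**Figure D2:**
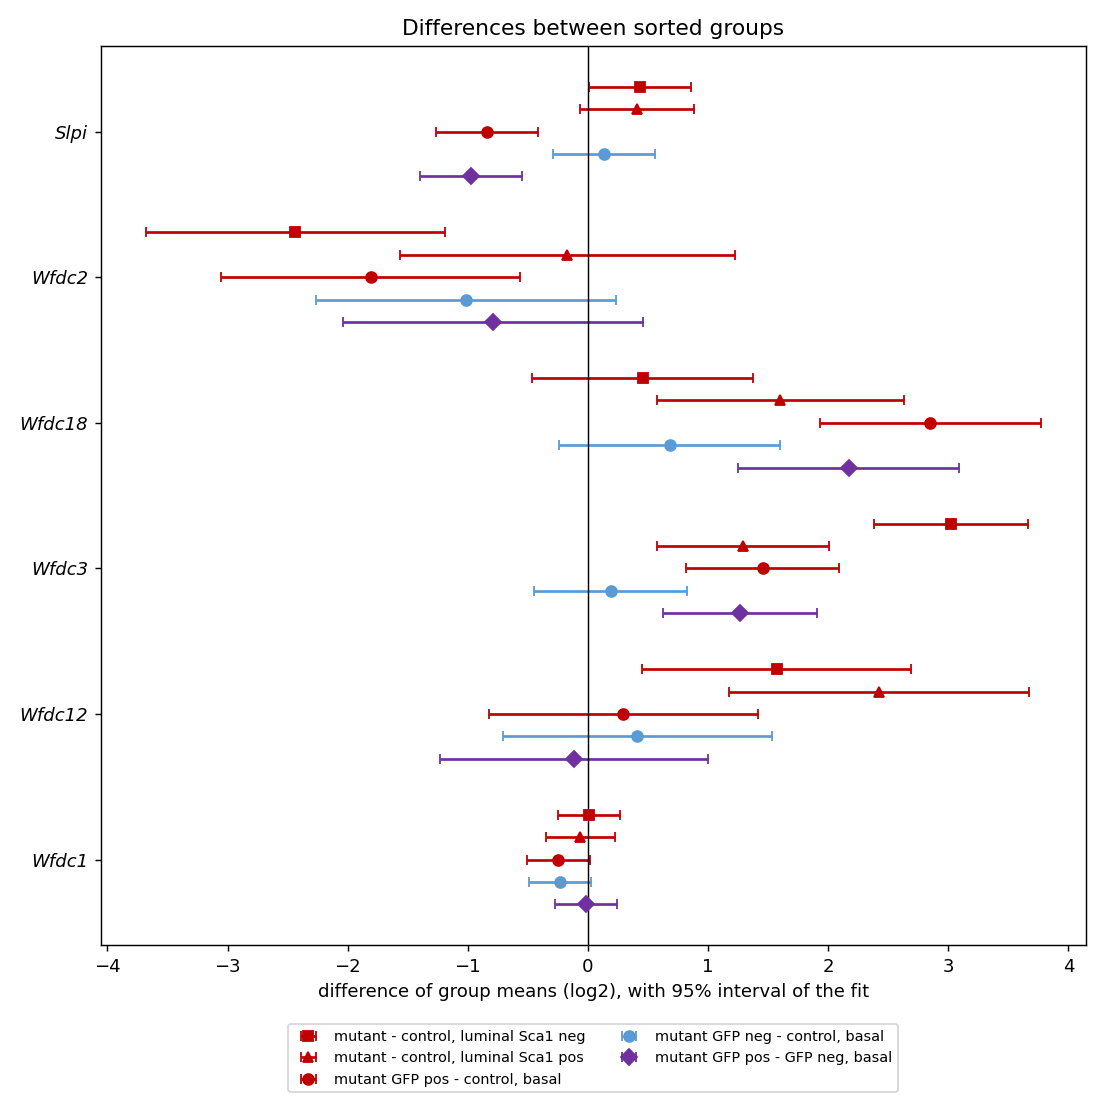
Log2 differences between group means (horizontal axis) for the 6 genes (vertical axis), with whiskers for the 95% interval of the fit. Red symbols compare GFP-positive mutant cells with control cells in 3 gates, pale blue circles GFP-negative mutant basal cells with control basal cells, and purple diamonds GFP-positive with GFP-negative basal cells of mutants. The Wfdc3 differences run from 0.19 for GFP-negative basal cells to 3.02 for Sca1-negative luminal cells.

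GFP-negative basal cells of mutant mice, which do not express the transgene, were compared with control basal cells. None of the 6 genes passed the threshold in limma, none had an unadjusted p under 0.05, and 0.161% of all genes were called. Slpi read 11.87, 11.64 and 11.63 in these cells, a difference from control of 0.13 (95% interval -0.29 to 0.56). Wfdc18 read 9.19, 9.36 and 9.57, a difference of 0.68 (interval -0.24 to 1.60) that was 0.011 without control basal replicate 3. Wfdc3 read 3.93, 4.12 and 4.25, a difference of 0.19 (interval -0.45 to 0.83). The Wfdc3 difference was -0.0026 without control basal replicate 2. Wfdc12 read 4.22, 3.66 and 3.58, just above the control arrays (difference 0.41). Wfdc2 read 6.27, 5.17 and 6.38 (difference -1.02, or -1.98 without control basal replicate 1), within the wide range of the control arrays, and Wfdc1 read 4.10, 3.80 and 4.33 (difference -0.23). The median of the 6 differences was 0.16, with -0.02 over all genes.

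GFP-positive basal cells were then compared with GFP-negative basal cells of the same genotype. Wfdc3 and Wfdc18 had been seen to be high on these GFP-positive arrays, so their differences are a description and enter no count: 2.17 (4.50-fold) for Wfdc18 and 1.27 (2.40-fold) for Wfdc3, neither with overlap. The Wfdc3 difference was 0.85 without GFP-positive replicate 1, the array that read 6.20, and 0.65 with the mean of both probe sets. Of the other 4 genes 1 was called, Slpi, against 3.25% of all genes. The median of the 6 differences was -0.07, with -0.01 over all genes.

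Slpi was 1.97-fold lower in GFP-positive than in GFP-negative basal cells (log2 difference -0.97 ± 0.20 SE, limma adjusted p = 0.0120), and all 3 GFP-positive arrays were below all 3 GFP-negative arrays. The call was lost without GFP-negative replicate 1 (adjusted p = 0.0523) and without the 2 arrays of narrow spread (adjusted p = 0.0580). Wfdc2 differed by -0.79 with overlapping arrays (limma adjusted p = 0.670).

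Luminal markers moved with these basal comparisons. The mean of the 6 luminal markers was 9.19, 8.30 and 8.87 on the GFP-positive arrays, 8.06, 7.60 and 8.04 on the GFP-negative arrays and 7.97, 8.34 and 7.52 on the control arrays. The mean of the 4 luminal progenitor markers was 6.13, 4.99 and 5.55 on the GFP-positive arrays, against 4.75 to 4.84 on the GFP-negative and 4.33 to 4.54 on the control arrays. GFP-positive replicate 1, with the highest Wfdc3, also had the highest means of both marker lists. Between GFP-positive and GFP-negative cells, 2 of 6 luminal markers (Krt18 and Cldn7) and 1 of 4 progenitor markers (Elf5) were called higher and 1 of 7 basal markers (Myh11) lower. Of 5 fibroblast markers 1 (Dcn, log2 difference 2.54) was called higher, and the other 4 were not called, with differences from -0.18 (Col3a1) to -0.03 (Lum). The 7 basal markers averaged 9.45, 9.01 and 8.90 on the GFP-positive arrays. The part of luminal or stromal RNA in the Wfdc18, Wfdc3 and Slpi differences was not tested.

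The gates of transgene-expressing cells were compared with each other as well. Wfdc3 and Wfdc18 had been seen to be high in these cells, so their differences are a description and enter no count. Between basal and Sca1-negative luminal cells 2 of the other 4 genes were called, against 9.59% of all genes. Wfdc2 was lower in basal cells by a log2 difference of -3.20 (limma adjusted p = 0.00173), while Slpi was higher by 0.81 (limma adjusted p = 0.0147). The Wfdc3 difference was -2.34, with no overlap of arrays. The Slpi call was lost without GFP-positive basal replicate 3 or without mutant Sca1-negative replicate 1 (adjusted p = 0.0645 for each). Wfdc12 differed by -1.64 (limma adjusted p = 0.0644), and by -2.44 (adjusted p = 0.000867) without mutant Sca1-negative replicate 1. Wfdc18, which separated these gates in controls, differed by -0.47 in transgene-expressing cells (95% interval -1.39 to 0.45), with no overlap of arrays.

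Between transgene-expressing basal and Sca1-positive luminal cells 2 of the 4 genes other than Wfdc3 and Wfdc18 were called. Both were lower in basal cells, against 10.7% of all genes called. Wfdc2 was 62.2-fold lower in basal cells (log2 difference -5.96, limma adjusted p = 1.09e-05). Wfdc12 was lower by a log2 difference of -2.32 (limma adjusted p = 0.0166), a call lost without GFP-positive basal replicate 1 (adjusted p = 0.0505), without mutant Sca1-positive replicate 3 (adjusted p = 0.223) and without the 2 arrays of narrow spread (adjusted p = 0.0626). Slpi differed by 0.38 (limma adjusted p = 0.373) and Wfdc3, as a description, by -0.02 (95% interval -0.73 to 0.70).

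Between the 2 luminal gates of mutants 1 of the 4 genes other than Wfdc3 and Wfdc18 was called, against 4.08% of all genes. This was Wfdc2, higher in Sca1-positive cells. As a description, Wfdc3 was lower in Sca1-positive cells, a difference of -2.32 with no overlap of arrays. With the mean of both probe sets the Wfdc3 difference was -1.17 here and -1.17 between basal and Sca1-negative cells. The Wfdc2 difference was 2.76 (limma adjusted p = 0.0243). It missed the threshold without mutant Sca1-negative replicate 2 (adjusted p = 0.0897) or replicate 3 (adjusted p = 0.0630), and without mutant Sca1-positive replicate 1 (adjusted p = 0.117) or replicate 3 (adjusted p = 0.192). Wfdc12 differed by 0.67 (adjusted p = 0.843) and Slpi by 0.43 (adjusted p = 0.482) in limma. The Wfdc18 difference, as a description, was -0.42 without overlap.

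Whether the mutant difference itself differed between gates was tested as an interaction, built from the same arrays as the mutant and control comparisons above. For Wfdc3 and Wfdc18, whose mutant differences chose the family, interactions are given as values without a test. Of the other 4 genes Slpi was the only one called, in 1 of the 3 interactions: its mutant difference in basal cells was 1.27 log2 units below that in Sca1-negative luminal cells (-1.27, 95% interval -1.88 to -0.67, limma adjusted p = 0.0318), against 1.55% of all genes. The call was lost when any of 8 arrays was left out (adjusted p = 0.0520 to 0.0802), namely control basal replicates 2 and 3, control Sca1-negative replicate 1, GFP-positive basal replicates 1 and 2, and each of the 3 mutant Sca1-negative arrays. Without the 2 arrays of narrow spread the adjusted p was 0.0927. In the same interaction Wfdc12 reached -1.28 (limma adjusted p = 0.661). The values of Wfdc18 and Wfdc3 were 2.39 and -1.57, with 1.72 for Wfdc18 without control basal replicate 3 and -0.79 for Wfdc3 with the mean of both probe sets.

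None of these 4 was called in the interaction of the basal with the Sca1-positive gate, against 1.09% of all genes. An unadjusted limma p under 0.05 was found for 2 of them (Wfdc12 and Slpi) and for 2028 of all 19937 genes. Slpi had a value close to that of the other interaction, -1.25 (limma adjusted p = 0.0623), and passed without control Sca1-positive replicate 3 (adjusted p = 0.0264). Wfdc12 reached -2.13 (adjusted p = 0.321) and Wfdc2 -1.64 (adjusted p = 0.571) in limma, the second passing without control basal replicate 1 (adjusted p = 0.0298). The value of Wfdc18 was 1.25, and 0.58 without control basal replicate 3. None of the 4 was called in the interaction of the 2 luminal gates, against 0.140% of all genes. An unadjusted limma p under 0.05 was found for 1 of them (Wfdc2) and for 1129 of all 19937 genes. There Wfdc2 reached 2.26 (limma adjusted p = 0.673), and the values of Wfdc3 and Wfdc18 were -1.73 and 1.15.

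Over the 7 groups each gene had its own order of levels. Slpi had a high pair of groups, GFP-negative mutant basal (mean 11.71 ± 0.14, SD) and control basal cells (11.58 ± 0.10), whose arrays overlapped, and a lower series of 5 groups from GFP-positive basal (10.73 ± 0.18) to control Sca1-negative cells (9.49 ± 0.44), in which each group overlapped the next. Wfdc18 was highest in mutant Sca1-negative cells (12.01 ± 0.04), followed by mutant Sca1-positive (11.59 ± 0.02, n = 2), control Sca1-negative (11.55 ± 0.07) and GFP-positive basal cells (11.54 ± 0.22), which overlapped. Control Sca1-positive (9.98 ± 0.79), GFP-negative basal (9.37 ± 0.19) and control basal cells (8.69 ± 1.19) formed its lower range, also with overlap of neighbours. Wfdc2 ran from control Sca1-positive (11.28 ± 0.10) and mutant Sca1-positive cells (11.11 ± 0.18, n = 2), which overlapped, through control Sca1-negative (10.78 ± 0.04) and mutant Sca1-negative cells (8.35 ± 0.43) to the 3 basal groups. The Wfdc2 order placed control basal (6.96 ± 1.73), GFP-negative basal (5.94 ± 0.67) and GFP-positive basal cells (5.15 ± 0.55) last, each overlapping the next. Wfdc3 stood alone in mutant Sca1-negative cells (7.70 ± 0.44), followed by mutant Sca1-positive (5.38 ± 0.19, n = 2) and GFP-positive basal cells (5.36 ± 0.72), which overlapped, and then by control Sca1-negative cells (4.68 ± 0.19). The remaining Wfdc3 groups lay between 3.91 and 4.10. Wfdc12 was highest in mutant Sca1-positive (6.02 ± 0.75, n = 2) and mutant Sca1-negative cells (5.35 ± 1.46), and its other 5 groups lay between 3.41 and 3.82. Each of these overlapped the next in the order of means, while GFP-negative basal arrays were all above control basal arrays.

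Across the 20 arrays Slpi ran opposite to Wfdc18 (Pearson r = -0.69) and to Wfdc2 (r = -0.70), and Wfdc3 ran with Wfdc18 (r = 0.70) and Wfdc12 (r = 0.52). These correlations describe 20 arrays that share groups, pools and lineages, and they carry no test. Wfdc3 and Wfdc18 were chosen for higher levels in mutant cells, so the r between them follows in part from that choice. GFP-positive basal cells kept a Slpi level between that of the other basal cells and that of luminal cells, and had Wfdc18 at the level of Sca1-negative luminal control cells.

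**Figure D3:**
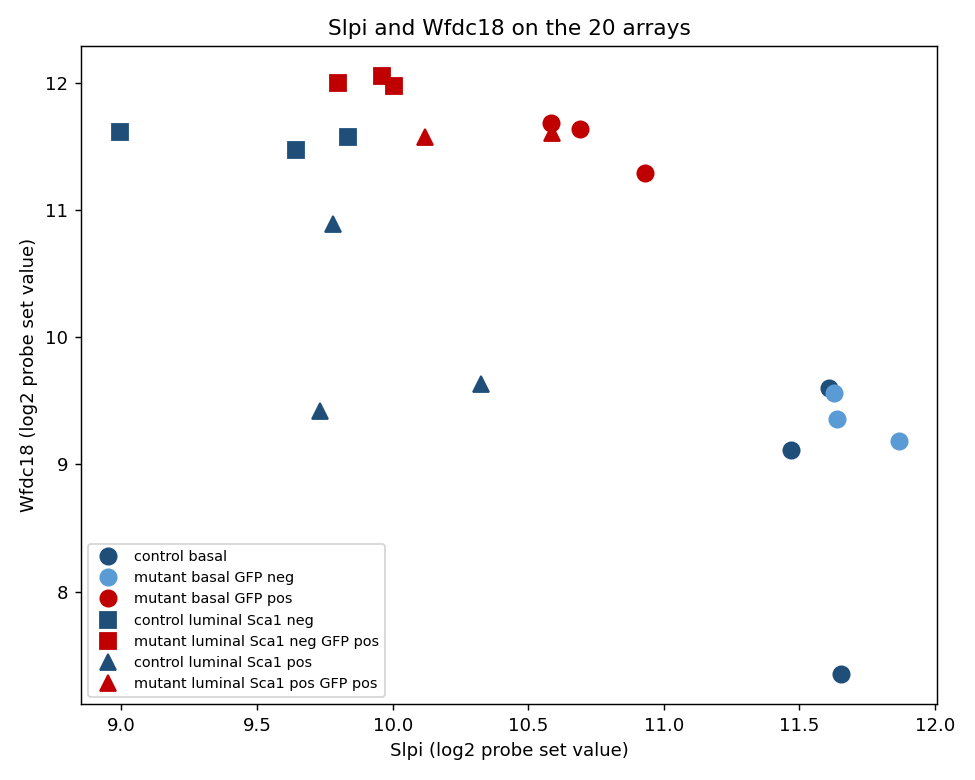
Slpi (horizontal axis) and Wfdc18 (vertical axis), both log2 probe set values, on each of the 20 arrays. Circles are basal, squares Sca1-negative luminal and triangles Sca1-positive luminal cells, with dark blue for control, pale blue for GFP-negative mutant and red for GFP-positive mutant cells. The 3 GFP-positive basal arrays have Wfdc18 of 11.29 to 11.69 and Slpi of 10.59 to 10.93, apart from the other 6 basal arrays.

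The 3 genes whose pattern was most like each member were found by Pearson r over the 20 arrays, among all 19937 genes. They were Smtn (0.94), Itga3 (0.93) and Rnf122 (0.92) for Slpi, and Gipc2 (0.96), Tlcd4 (0.95) and Tgm2 (0.95) for Wfdc2. For Wfdc18 they were Sulf2 (0.88), Trf (0.88) and Cd55 (0.87), and for Wfdc3 they were Tmem37 (0.96), Orai1 (0.94) and Car2 (0.93). Wfdc12 was nearest to Hrct1 (0.82), Pcx (0.82) and Mlkl (0.79), and Wfdc1 to Ogfr (0.80), Chrm5 (0.78) and Vnn3 (0.76). Over the 7 group means, 1 of the 3 was again among the nearest for Wfdc3 (Tmem37) and 1 for Slpi (Rnf122), and 0 for the other 4 genes.

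A list of 18 other genes, all measured, gave the family background. It holds WAP-domain genes and Spint4, which is named as a Kunitz-type inhibitor. Wap, the whey acidic protein of milk, was the one gene of the list called in the mutant comparisons that the choice of the family used. The shares of all genes called there were 1.90%, 0.226% and 4.23% in the Sca1-negative, Sca1-positive and basal gates. Wap was higher in all 3 gates. Its mean was 9.41 ± 0.51 (SD, n = 3) in mutant and 4.57 ± 0.87 in control Sca1-negative cells, a log2 difference of 4.85. The difference was 4.26 in the Sca1-positive gate, where the call was lost without either of the 2 mutant arrays, and 2.98 in the basal gate, or 2.11 without GFP-positive basal replicate 1. The basal call of Wap was lost in a fit of only the compared groups. In GFP-negative basal cells against control, Wap differed by 0.71, and 0 of 18 genes were called in limma, with 1 at an unadjusted p under 0.05. Of all 19937 genes 0.161% were called, and 1932 had an unadjusted p under 0.05. Between GFP-positive and GFP-negative basal cells 0 of 18 were called, against 3.25% of all genes. An unadjusted limma p under 0.05 was found for 2 of 18 and for 2687 of all 19937 genes. Wap differed by 2.28 (limma adjusted p = 0.0566). Wap passed there without GFP-negative replicate 3 (adjusted p = 0.0355) and without GFP-positive replicate 2 (adjusted p = 0.0217), and its difference was 1.41 without GFP-positive replicate 1. In the 3 control lineage comparisons 0 of 18 were called in limma, with 1 at an unadjusted p under 0.05 in each. In the 3 interactions 0 of 18 were called, with 2 in each. Of all 19937 genes, 1563 to 4590 had an unadjusted p under 0.05 in the control comparisons and 1129 to 2028 in the interactions.

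Among transgene-expressing cells, Wap (-2.83, limma adjusted p = 0.00602) and Wfdc17 (-2.23, limma adjusted p = 0.0336) were lower and Wfdc8 (0.33, limma adjusted p = 0.0106) was higher in basal than in Sca1-negative luminal cells. The Wap call was lost without the 2 arrays of narrow spread (adjusted p = 0.0518) and in a fit of only the compared groups (adjusted p = 0.0718). The Wfdc17 call was lost when any of 5 arrays was left out (adjusted p = 0.0605 to 0.140), GFP-positive basal replicates 1 and 2 and the 3 mutant Sca1-negative arrays. The Wfdc8 call was lost without mutant Sca1-negative replicate 1 (adjusted p = 0.0532). Wfdc17, singled out after its values were seen as the neighbour of Wfdc18, had a mean of 6.05 ± 0.29 in mutant and 3.52 ± 0.50 in control Sca1-negative cells, a difference of 2.52 without overlap. It was not called in that comparison.

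**Figure D4:**
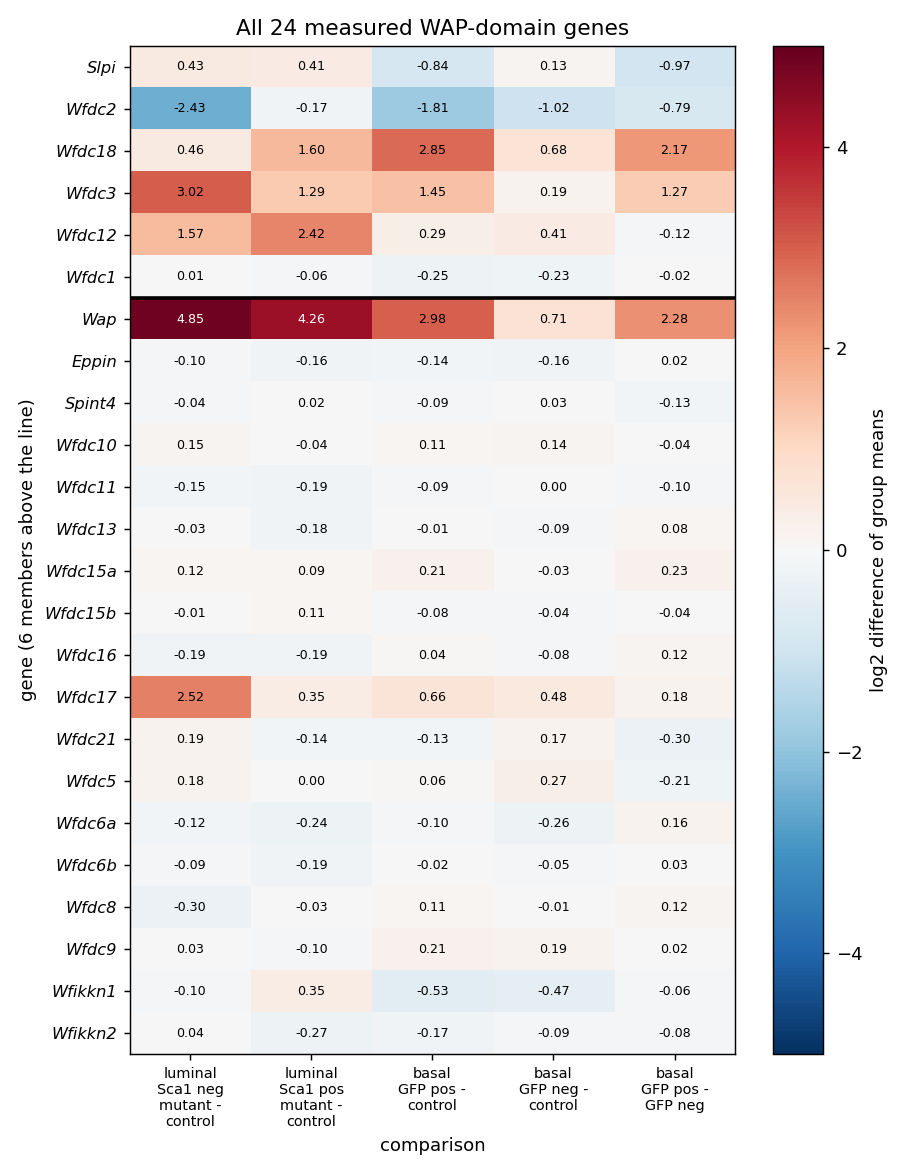
Log2 differences between group means, as numbers and colour, for the 6 members and the 18 listed genes, Spint4 among them (24 genes, vertical axis). The 5 comparisons are on the horizontal axis, with red for higher and blue for lower in the first-named group. Wap, at 4.85, 4.26 and 2.98, Wfdc3, Wfdc18, Wfdc12, Wfdc17 and Wfdc2 each reach more than 1.5 in size in at least 1 comparison. Slpi goes down to -0.97, and the other 17 genes stay within 0.53 of 0.

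Serine proteases, the class of enzyme that these inhibitors block, were described by a list of 19 genes, all measured. Between control basal and Sca1-negative luminal cells 3 were higher and 4 lower in basal cells, against 9.89% of all genes called. The largest differences were those of Tmprss2 (-4.74), Plat (3.07), Prss8 (-2.82) and Prss22 (-2.06). The membrane-bound epithelial proteases Tmprss2 and Prss8 were thus luminal, and Plat, tissue plasminogen activator, was basal (limma adjusted p = 5.32e-06). Htra1, a secreted serine protease, was higher in GFP-positive than in GFP-negative basal cells by 2.79 (limma adjusted p = 1.00e-07), with means of 7.64 ± 0.29 against 4.85 ± 0.14, and 4.77 ± 0.31 in control basal cells. Plat was lower in GFP-positive basal cells by a log2 difference of -1.60 (limma adjusted p = 0.00869), a call lost in a fit of only these 2 groups (adjusted p = 0.154). These were the 2 of 19 proteases called in that comparison, against 3.25% of all genes. Between GFP-negative and control basal cells 0 of 19 were called, against 0.161% of all genes. An unadjusted limma p under 0.05 was found there for 2 of 19 and for 1932 of all 19937 genes. In the mutant and control comparisons of the luminal gates, Prss23 was called lower in Sca1-negative cells (-1.16), a call lost in 10 of 16 alternative settings, among them leaving out any of the 6 arrays compared. In Sca1-positive cells 0 of 19 were called, with 3 at an unadjusted limma p under 0.05, against 1786 of all 19937 genes. Elane, neutrophil elastase and the best known target of Slpi, had group means between 3.46 and 3.72, near the array medians.

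Inhibitors of the Kunitz and Kazal classes, unrelated in fold to WAP domains, formed a list of 12 genes, all measured. In the 3 comparisons of transgene-expressing with control cells 0 of 12 were called in limma. In the Sca1-negative, Sca1-positive and basal gates 1, 0 and 5 had an unadjusted p under 0.05. Of all 19937 genes 2235, 1786 and 3187 did. Between GFP-negative and control basal cells 0 of 12 were called, with 1 at an unadjusted p under 0.05, against 1932 of all genes. Between GFP-positive and GFP-negative basal cells 0 of 12 were called, with 4 at an unadjusted p under 0.05, against 2687 of all genes. Between control basal and Sca1-negative luminal cells Spint1, the inhibitor of matriptase and hepsin, was lower in basal cells (-3.11, limma adjusted p = 3.02e-06) and Reck, a membrane-anchored inhibitor of metalloproteases, was higher (1.47, limma adjusted p = 0.00392).

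By RefSeq gene order, the stretch of chromosome 2 from Wfdc5 to Wfdc3 holds 32 protein-coding genes, and all 32 were measured. Of these 17 were members or genes of the list of other WAP-domain genes, with Spint4 among them. In the Sca1-negative luminal comparison of mutant with control cells the called genes of this stretch were Wfdc3, which was higher, and Wfdc2, which was lower. In the basal comparison they were Wfdc3, which was higher, and Slpi and Sdc4, which were lower. Between GFP-positive and GFP-negative basal cells they were Slpi and, as a description, Wfdc3. In the Sca1-positive and the GFP-negative comparisons there were 0. There 3 and 2 genes of the stretch had an unadjusted limma p under 0.05, against 1786 and 1932 of all 19937 genes. Wfdc18 lies between Wfdc17 and Wfdc21 on chromosome 11. Taking the 2 nearest protein-coding genes on each side of every member gave 24 neighbours, of which 0 were called in these 5 comparisons. In each comparison 1 to 3 of them had an unadjusted limma p under 0.05, against 1786 to 3187 of all 19937 genes.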

How the data were processed

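Each of the 20 Affymetrix arrays held amplified RNA of 2000 sorted cells, per the labels' protocols. The table deposited by the authors holds log2 summaries of probe sets, a unit read from the values (1.98 to 13.07). The submitters' processing notes name affy without a version. Normalization, filters and genome build are not given in the sources used here. Of 34760 deposited probe sets, 21640 had 1 symbol in the platform annotation, 1321 had several and 11799 were not listed. This left 19937 genes, the brightest probe set being kept for the 954 genes with several.

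The log2 values were fitted with limma 3.58.1 (R 4.3.3, lmFit and eBayes, no filter) as 7 group means over all 20 arrays. From this fit 14 contrasts were drawn, with calls at an adjusted p under 0.05 (Benjamini-Hochberg over all genes of a contrast), after the script had been tested on simulated data. The p-values measure the spread between pools, and gates of 1 genotype can come from the same pools, which the fit ignores. The number of arrays limits the precision. The replicate number was not used as a block.

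The 6 members and the gene lists (other WAP-domain genes, serine proteases, Kunitz and Kazal inhibitors, cell type markers) were chosen with earlier results of these data known. Named genes were the members, at most 4 called genes of a list per contrast with the largest difference, and the 3 nearest genes by Pearson r. Alternatives were another normalization, a filter on low values, array weights, an intensity trend, other probe set choices, fewer groups, a replicate block and fits without single arrays.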

Additional observations from a re-analysis of the deposited data

Results flagged for a closer look

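The mutant difference of Slpi differed between gates. In basal cells GFP-positive mutant cells were below control by a log2 difference of -0.84, with 3 of 3 mutant arrays below all controls. In Sca1-negative luminal cells the difference was 0.43, with overlapping arrays. The interaction of -1.27 passed the threshold in limma (adjusted p = 0.0318), and over its 22 alternatives the adjusted p exceeded 0.05 in 10.

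Among the serine proteases, the mutant difference of Htra1 in basal cells exceeded that in Sca1-negative luminal cells by 3.06 (limma adjusted p = 3.81e-06) and that in Sca1-positive luminal cells by 2.61 (limma adjusted p = 6.91e-05), both called in every alternative run. The mutant difference of Plat in basal cells was below that in Sca1-negative luminal cells (-2.02, limma adjusted p = 0.0294) and below that in Sca1-positive luminal cells (-2.54, limma adjusted p = 0.0137). The first of these Plat interactions was lost in 9 of 22 alternatives and the second in 3 of 21.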

How the results depend on the processing

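Some member differences printed with a test kept their call under every alternative run. Between control basal and Sca1-negative luminal cells these were Slpi, Wfdc2 and Wfdc18, and between control basal and Sca1-positive luminal cells Slpi and Wfdc2. Among transgene-expressing cells they were Wfdc2 between basal and Sca1-negative cells and Wfdc2 between basal and Sca1-positive cells. Over all printed differences 1369 comparisons with an alternative kept direction and side of the threshold, 82 lost a call, 36 gained one and 2 turned sign: Wfdc3 in GFP-negative against control basal cells (-0.0026 without control basal replicate 2, and up to 0.29 without replicate 1) and Wfdc12 between the mutant luminal gates (-0.13 without mutant Sca1-negative replicate 1, and up to 1.30 without replicate 3). Of 57 pairs of same-numbered arrays from different groups 5 had a correlation of residuals over 0.1 (median 0.02, against -0.01 for different numbers), while 15 of 20 arrays correlated best with their own number, a hint from the data and not from the design. With the replicate block, all-gene calls moved little (378 without and 404 with it for Sca1-negative mutant against control), and the members called there went from 2 to 1, while Wfdc12 between transgene-expressing basal and Sca1-negative cells gained its call. For the same Sca1-negative comparison the count was also 1 after centring, with all probe sets tested and without the 2 arrays of narrow spread. GFP-positive against control basal cells went from 3 to 1 in a fit of only those groups. The interaction of basal with Sca1-negative cells went from 1 to 2 with the low-value filter, array weights or an intensity trend, and to 0 with all probe sets or without the narrow arrays. The added call was Wfdc18, whose interactions are given here as values without a test. Control luminal subsets went from 0 to 1 with array weights, the interaction of basal with Sca1-positive cells from 0 to 1 with a trend, that of the luminal gates from 0 to 1 with only the compared groups, and transgene-expressing basal against Sca1-positive cells from 2 to 1 without the narrow arrays. In comparisons where Wfdc3 and Wfdc18 enter no count, lost calls of the other members are given above. Leaving out single arrays gave 1 to 2 calls for the Sca1-negative comparison and 2 to 4 for GFP-positive against control basal. Leaving out single arrays also gave 2 to 3 for control basal against Sca1-positive and 0 to 1 for the control luminal subsets. Where this left 1 mutant Sca1-positive array, that array was assumed to vary like the other groups. The cause of these changes was not tested. Genes near the array medians, such as Wfdc1 and most other WAP-domain genes, are limited by signal over background.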
